A study of Drosophila melanogaster with 8 samples.

Results

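The genes described here are 10 that make and move dopamine and octopamine (ple, Ddc, Tbh, Tdc2, Vmat, DAT, e, t, b and Pu), picked by name from a table of 16727 genes in which all 10 were listed. Dopamine and octopamine are monoamine transmitters of the fly brain that act in arousal, reward and movement. Dopamine is made from tyrosine by tyrosine hydroxylase (ple) and DOPA decarboxylase (Ddc). Octopamine, the insect counterpart of noradrenaline, is made from tyrosine through tyramine by a tyrosine decarboxylase (Tdc2) and tyramine β-hydroxylase (Tbh). The vesicular transporter Vmat loads both amines, and serotonin, into synaptic vesicles, and the plasma membrane transporter DAT takes dopamine back up. Pu, GTP cyclohydrolase I, starts the synthesis of tetrahydrobiopterin, the cofactor of ple. The enzymes e, t and b run the β-alanine cycle: b makes β-alanine, e couples it to dopamine or histamine, and t splits the conjugate again. The same chemistry tans the cuticle, and e and t also recycle the histamine released by photoreceptors.

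All were measured by RNA sequencing (RNA-seq) of whole female *Drosophila* heads in 8 libraries of 15 heads each. The 4 induced libraries came from (G4C2)36; elavGS flies fed 200 µM RU486 for 5 d, and the 4 uninduced libraries from flies of the same genotype fed the ethanol vehicle for 5 d, all labelled as w1118 and 7 d old. elavGS is a neuronal driver that RU486 switches on, here to express the *C9orf72* repeat that causes amyotrophic lateral sclerosis and frontotemporal dementia. Both groups carried the repeat and the driver, and the comparison asks which genes of the head change after 5 d of repeat expression in neurons. RU486 was fed to all induced and to no uninduced flies, so an effect of the drug and an effect of the repeat cannot be told apart.

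The libraries held 13421396 to 14962813 counts in induced heads and 13247282 to 14192723 in uninduced heads. All 10 genes passed the filter on low counts, with 78 to 5386 counts per library. Values are given as CPM, counts scaled to a library total of 1000000 after edgeR's TMM normalization. Photoreceptor markers were abundant, with summed levels of 46562 to 49293 CPM in induced and 45884 to 48103 CPM in uninduced heads for 7 photoreceptor genes. Of 8 fat body markers, Fbp1 was at 0 to 11 counts per library and not tested, and the other 7 were lower in induced heads, with a summed level of 90011 to 114814 CPM in induced and 140741 to 152128 CPM in uninduced heads. Of 9 neuronal markers, with a summed level of 2909 to 3102 CPM in induced and 2806 to 3097 CPM in uninduced heads, 2 were higher, 3 lower and 4 not called. Uninduced replicate 4 stood apart within its group, at 8.80 to 12.3 in chi-square per gene from each other uninduced library. Sampling noise alone gives 1. Pairs of the other uninduced libraries differed by 3.72 to 3.90, and pairs of induced libraries by 2.76 to 8.83. RNA from whole heads sums over all cells, so that fewer cells of a type and less RNA per cell cannot be told apart.

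Of the 10 genes, 1 was higher (Tdc2) and 4 were lower (ple, Vmat, DAT and t) in induced heads, by the quasi-likelihood test of edgeR, with p adjusted after Benjamini and Hochberg over all 9905 genes tested and a threshold of 0.05. Among all those genes, 36.5% passed, 17.7% as higher and 18.8% as lower, so passing the threshold was common in this comparison. The CPM of the groups did not overlap for the same 5 genes, against 36.0% of all genes tested. The median log2 fold change was -0.075 over the 10 genes and 0.0011 over all genes. Induced libraries differ from uninduced ones in their TMM factors (1.04 to 1.08 against 0.913 to 0.954). Scaling to the library totals only, without these factors, shifted the median of all genes to 0.18 and that of the 10 genes to 0.10. Under this scaling the split was 4 higher and 1 lower, and Tdc2 and ple were the genes that passed in the same direction under both.

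**Figure D1:**
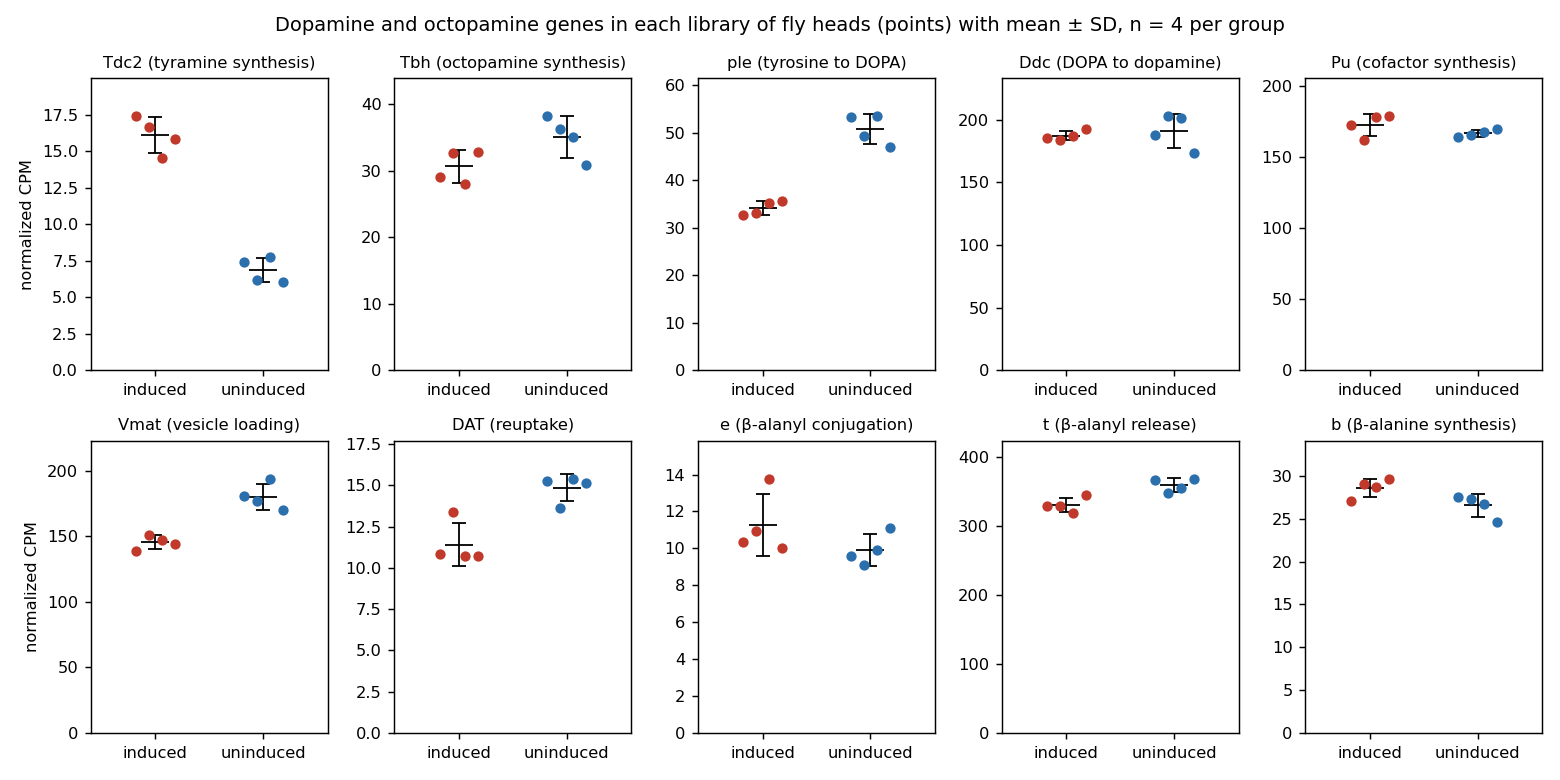
Normalized CPM (vertical axes, from 0) of the 10 genes in the 4 induced (red) and 4 uninduced (blue) libraries. Points are libraries, and the bars are the mean ± SD. Tdc2 lies at 14.5 to 17.4 CPM in induced heads, above 6.07 to 7.76 CPM in uninduced heads, and ple, Vmat, DAT and t lie lower without overlap.

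The genes differed widely in level. Per kilobase of exon, t was the most abundant of the 10, with 167 ± 5.23 CPM per kb in induced and 182 ± 4.88 CPM per kb in uninduced heads (SD, n = 4 each). Next came Pu (80.2 ± 3.59 in induced, 77.5 ± 1.16 in uninduced heads) and Ddc (67.0 ± 1.32 in induced, 68.4 ± 4.91 in uninduced heads), followed by Vmat (17.9 ± 0.655 in induced, 22.1 ± 1.23 in uninduced heads). The remaining 6 genes lay between 3.59 and 13.4 CPM per kb in induced heads and between 2.98 and 13.3 CPM per kb in uninduced heads. In induced heads their order was b, ple, Tbh, Tdc2, DAT and e. In uninduced heads it was ple, b, Tbh, DAT, e and Tdc2, so that Tdc2 was the least abundant of the 10. The values of neighbours in these orders overlapped between Tbh and Tdc2 and between DAT and e in induced heads, and between ple and b and between e and Tdc2 in uninduced heads. The enzymes that act first on tyrosine, ple and Tdc2, were thus far below Ddc, which serves dopamine and serotonin synthesis and also cuticle tanning.

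Of the octopamine enzymes, Tdc2 rose and Tbh did not pass the test. Tdc2 is the decarboxylase of tyramine and octopamine neurons, and lies on the minus strand of chromosome 2R from 6684745 to 6689974 (dm6). It had 17.4, 16.7, 14.5 and 15.8 CPM in the 4 induced libraries, against 7.41, 6.20, 7.76 and 6.07 CPM in the 4 uninduced libraries. These values rest on 229 to 255 counts per induced and 78 to 99 per uninduced library. Every induced library was above every uninduced library by a wide margin, and the induced mean was 235% of the uninduced mean. On the log2 scale the fold change was 1.23 (standard error 0.098, 95% interval 1.02 to 1.44, adjusted p = 3.5e-07 from edgeR, exact two-sided permutation p = 0.0286, the smallest that 4 libraries against 4 allow). Only 1.63% of the genes tested had a larger absolute change.
Neither Tdc1 nor Tbh passed the test. Tdc1, the paralogous decarboxylase that works mainly outside the nervous system, had 24.3 to 29.5 CPM in induced and 24.0 to 30.5 CPM in uninduced heads (log2 fold change -0.13, adjusted p = 0.243 from edgeR). Without uninduced replicate 4, Tdc1 passed as lower (-0.20, adjusted p = 0.0459), and under library totals only it turned to 0.043 (adjusted p = 0.713). Tdc1, named after its values were seen, lies near Tdc2 on the same strand, from 6677001 to 6680391. Tdc2 shares 0 exon bases with other genes. Whether reads match both paralogs was not examined, and how the counting would have dealt with them is not known here. Tbh, which hydroxylates tyramine to octopamine, is on chromosome X from 7995697 to 8027394. It had 29.0, 32.6, 28.1 and 32.9 CPM in induced libraries, against 38.2, 36.2, 35.0 and 30.8 CPM in uninduced libraries. The groups overlapped through uninduced replicate 4, the lowest of its group. Tbh had a log2 fold change of -0.19 (95% interval -0.36 to -0.033, adjusted p = 0.0575 from edgeR), so that it did not pass the threshold, and under library totals only it was -0.017 (adjusted p = 0.876). It passed without uninduced replicate 4 (-0.24, adjusted p = 0.0122) and without induced replicate 4 (-0.23, adjusted p = 0.0471). Within each library, the ratio of Tdc2 to Tbh, both per kb, does not depend on the scaling. It was 1.01, 0.859, 0.868 and 0.809 in induced libraries, against 0.326, 0.288, 0.372 and 0.331 in uninduced libraries. Per kb, the decarboxylase thus approached the level of the hydroxylase in induced heads. Without division by length, the induced means were 16.1 CPM for Tdc2 and 30.6 CPM for Tbh.

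Of the dopamine enzymes, ple fell and Ddc did not pass the test. ple, the tyrosine hydroxylase that sets the rate of dopamine synthesis, lies on chromosome 3L from 6713356 to 6719525. It had 32.6, 33.1, 35.1 and 35.6 CPM in induced libraries, against 53.3, 49.3, 53.4 and 47.0 CPM in uninduced libraries. The induced values lay close together and all below the lowest uninduced value, at 67.2% of the uninduced mean. Its log2 fold change was -0.57 (standard error 0.058, 95% interval -0.70 to -0.45, adjusted p = 3.4e-06 from edgeR, exact permutation p = 0.0286). Under library totals only it was -0.40 (adjusted p = 1.5e-04).
Ddc, which turns DOPA into dopamine and 5-hydroxytryptophan into serotonin, is on chromosome 2L from 19116483 to 19120306, and 88 of its 2797 exon bases are shared with CG10561 on the opposite strand. It had 186, 184, 187 and 193 CPM in induced libraries, against 188, 203, 201 and 173 CPM in uninduced libraries. The uninduced libraries spread around the induced ones, with uninduced replicate 4 the lowest of all. Ddc differed by -0.029 on the log2 scale, with a 95% interval from -0.14 to 0.083 (adjusted p = 0.703 from edgeR). Under library totals only it was 0.15 (adjusted p = 0.0573), so its sign depended on the scaling.
Pu, on chromosome 2R from 21175315 to 21182608, makes the first intermediate of tetrahydrobiopterin and of the pteridine eye pigments. It had 173, 162, 178 and 178 CPM in induced libraries, against 164, 165, 168 and 170 CPM in uninduced libraries. The induced libraries lay on both sides of the uninduced ones. Pu differed by 0.051 on the log2 scale (95% interval -0.045 to 0.15, adjusted p = 0.406 from edgeR), and 0.23 under library totals only (adjusted p = 0.0012).

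Ratios within each library are free of the scaling. Per kb, the ratio of ple to Ddc was 0.129 to 0.138 in induced and 0.179 to 0.209 in uninduced libraries, without overlap. The ratio of Pu to ple was 8.64 to 9.35 in induced and 5.45 to 6.39 in uninduced libraries. Relative to Vmat, ple was also lower, at 0.468 to 0.527 in induced and 0.589 to 0.631 in uninduced libraries. DAT over ple overlapped, with 0.377 to 0.506 in induced and 0.346 to 0.404 in uninduced libraries. These ratios were chosen after the values of the genes had been seen and are given with no test.

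**Figure D2:**
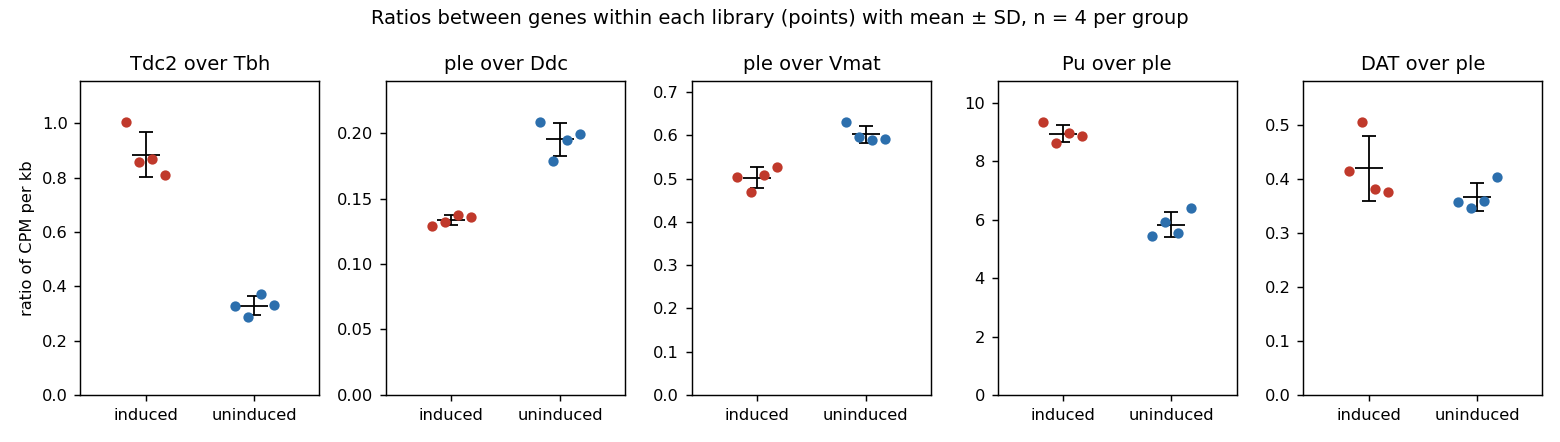
Ratios between genes of the pathway within each library (vertical axes, CPM per kb of exon over CPM per kb of exon, from 0) for 4 induced (red) and 4 uninduced (blue) libraries, with the mean ± SD. Tdc2 over Tbh averages 0.885 in induced and 0.329 in uninduced heads, ple over Ddc averages 0.134 in induced and 0.195 in uninduced heads, and DAT over ple overlaps between the groups.

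Both transporters were lower in induced heads. Vmat, on chromosome 2R from 13513132 to 13534251, had 138, 151, 147 and 145 CPM in induced libraries, against 181, 177, 194 and 170 CPM in uninduced libraries. All induced values were under the lowest uninduced one, and their mean was at 80.7% of the uninduced mean. This was a log2 fold change of -0.31 (standard error 0.049, 95% interval -0.42 to -0.20, adjusted p = 2.2e-04 from edgeR). Of the 8134 exon bases of Vmat, 2129 are shared with CG13330 on the opposite strand, and whether the counting used strand is not given in the sources used here. CG13330 had 482 to 517 counts in induced and 586 to 668 in uninduced libraries (log2 fold change -0.52, adjusted p = 2.8e-06 from edgeR), so reads of both genes cannot be told apart if strand was not used.
DAT, the dopamine reuptake transporter, on chromosome 2R from 16558567 to 16565238, was low, with 159 to 194 counts in induced and 178 to 204 in uninduced libraries. It had 10.8, 13.4, 10.7 and 10.7 CPM in induced libraries, against 15.3, 13.6, 15.4 and 15.2 CPM in uninduced libraries. The groups came close, with induced replicate 2 just below uninduced replicate 2, and the other libraries of each group lay together. For DAT the log2 fold change was -0.38 (standard error 0.089, 95% interval -0.57 to -0.19, adjusted p = 0.0037 from edgeR), and it was -0.47 without induced replicate 2. Under library totals only, Vmat (-0.13, adjusted p = 0.0721) and DAT (-0.20, adjusted p = 0.0720) kept their direction and did not pass the threshold.

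Of the β-alanine cycle, t passed the test as lower by a small margin, and e and b did not pass. t, the hydrolase that frees dopamine and histamine from β-alanine, lies on chromosome X from 9217655 to 9223257. It had 329, 329, 319 and 344 CPM in induced libraries, against 367, 348, 354 and 367 CPM in uninduced libraries. The groups did not overlap, but the highest induced library came close to the lowest uninduced one. The difference was -0.12 on the log2 scale (95% interval -0.22 to -0.027, adjusted p = 0.0437 from edgeR), and in 11 of 15 alternative settings the call was lost or its sign turned. Under library totals only the value turned, to 0.057 (adjusted p = 0.350).
The ligase e, which works mostly in glia and is on chromosome 3R from 21229839 to 21237177, had 10.4, 11.0, 13.7 and 10.0 CPM in induced libraries, against 9.58, 9.11, 9.90 and 11.1 CPM in uninduced libraries. The groups overlapped, and induced replicate 3 was the highest library. Its log2 fold change was 0.19 (95% interval -0.050 to 0.42, adjusted p = 0.209 from edgeR), and it was 0.073 without induced replicate 3. The decarboxylase b, on chromosome 2L from 13821248 to 13823979, had 27.1, 29.0, 28.8 and 29.6 CPM in induced libraries, against 27.5, 27.3, 26.8 and 24.7 CPM in uninduced libraries. Here induced replicate 1 lay among the uninduced libraries. b differed by 0.11 on the log2 scale (95% interval -0.019 to 0.23, adjusted p = 0.175 from edgeR). Under library totals only, e (0.36, adjusted p = 0.0087) and b (0.28, adjusted p = 0.0027) passed as higher. Of 8 glial markers, 3 were higher and 3 lower, with a median log2 fold change of 0.021. Their summed level was 1799 to 1935 CPM in induced and 2103 to 2189 CPM in uninduced heads. The largest difference in CPM was that of Eaat1, with a mean of 245 CPM in induced and 450 CPM in uninduced heads. The part of the glial markers in the values of e was not tested.

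**Figure D3:**
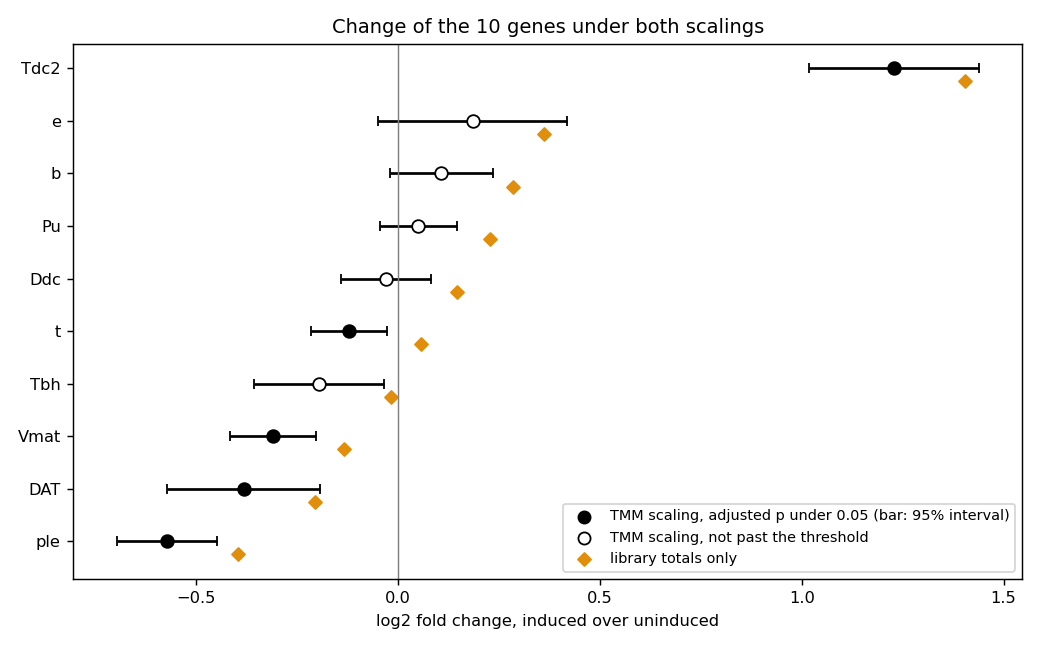
Log2 fold change (horizontal axis, induced over uninduced) of the 10 genes with TMM scaling (circles, filled where the adjusted p was under 0.05, with 95% intervals) and with library totals only (diamonds). Tdc2 (1.23 and 1.41) and ple (-0.57 and -0.40) are past the threshold in the same direction under both scalings, and the diamonds lie about 0.18 to the right of the circles.

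The genes around the pathway were followed in 6 lists chosen by role, with 33 genes in all, all of them tested. Of these, 8 were higher, 10 lower and 15 not called, with a median log2 fold change of -0.11. Over all 9905 genes tested, 17.7% were higher and 18.8% lower, with a median of 0.0011. Under library totals only, 14 of the 33 were higher and 7 lower, with a median of 0.070. That scaling gave 4488 higher and 874 lower over all genes tested, with a median of 0.18.
The cofactor list held the later enzymes of tetrahydrobiopterin synthesis and recycling. Of its 4 genes, 2 were lower and 0 higher. Sptr, sepiapterin reductase, which makes tetrahydrobiopterin in its last step, had 31.2 to 33.6 CPM in induced and 39.0 to 48.8 CPM in uninduced heads (log2 fold change -0.42, adjusted p = 2.0e-04 from edgeR). Dhpr, which regenerates the cofactor after use, had 75.2 to 86.4 CPM in induced and 96.4 to 131 CPM in uninduced heads (-0.41, adjusted p = 0.0018). In both, the groups did not overlap, and both passed as lower also under library totals only. Pcd, which takes part in regenerating the cofactor, did not pass (-0.18, adjusted p = 0.0555), nor did the fourth gene of the list. Pcd passed as lower with the replicate block (adjusted p = 0.0228), with upper quartile normalization (0.0486), and without induced replicate 1 (0.0476), uninduced replicate 2 (0.0445) or uninduced replicate 3 (0.0304).
Among 7 genes of other monoamine synthesis, transport and N-acetylation, 3 were higher and 3 lower. The vesicular transporter prt, a relative of Vmat, fell most, with 4.97, 5.45, 5.89 and 7.02 CPM in induced libraries, against 11.6, 12.5, 12.5 and 11.4 CPM in uninduced libraries (a log2 fold change of -1.04 with a standard error of 0.10, adjusted p = 3.5e-06 from edgeR). Every induced value was well below the uninduced ones. Hn, phenylalanine hydroxylase, which makes tyrosine and uses the same cofactor as ple, had 481 to 557 CPM in induced and 738 to 995 CPM in uninduced heads (-0.69, adjusted p = 1.8e-05). amd, a relative of Ddc that lies beside it, had 8.81 to 10.3 CPM in induced and 6.89 to 9.28 CPM in uninduced heads (0.31, adjusted p = 0.0290), and its call was lost with DESeq2 (adjusted p = 0.0739) and in 6 of 8 fits that left a library out (adjusted p up to 0.0761), those without induced replicates 1, 2 and 3 and uninduced replicates 2, 3 and 4. The other calls in this list, chosen for mention after their values were seen, were the serotonin transporter SerT (0.29, adjusted p = 0.0063), the arylalkylamine N-acetyltransferase listed as Dat (0.19, adjusted p = 0.0053) and the neuronal tryptophan hydroxylase Trh (-0.20, adjusted p = 0.0211). The call of Trh was lost without induced replicate 1 (adjusted p = 0.0563), induced replicate 4 (0.0525) or uninduced replicate 1 (0.0738), with DESeq2 (0.0831) and under library totals only, where it was -0.025 (0.770). Dat here is the gene now named speck, not the transporter DAT.

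The receptors moved in both directions. Of 4 dopamine receptors, 2 were higher. Dop2R, the inhibitory receptor of the D2 type, which also acts as an autoreceptor on dopamine neurons, had 43.3, 37.7, 41.6 and 42.3 CPM in induced libraries, against 28.6, 29.6, 26.1 and 27.4 CPM in uninduced libraries (a log2 fold change of 0.56 with a standard error of 0.061, adjusted p = 7.0e-06 from edgeR). All induced values were above all uninduced ones. DopEcR, a receptor for dopamine and ecdysteroids, had 345 to 361 CPM in induced and 276 to 316 CPM in uninduced heads (0.24, adjusted p = 0.0015). Dop1R1 (-0.11, adjusted p = 0.234) and Dop1R2 (-0.068, adjusted p = 0.544), which raise cAMP and were named after their values were seen, did not pass, and under library totals only they turned to 0.066 and 0.11.
Of 8 octopamine and tyramine receptors, 1 was higher and 2 were lower. TyrR, a tyramine receptor, had 24.5, 25.9, 11.7 and 16.9 CPM in induced libraries, against 10.2, 10.6, 13.3 and 9.88 CPM in uninduced libraries (a log2 fold change of 0.84 with a standard error of 0.20, adjusted p = 0.0051 from edgeR). Induced libraries spread widely, and induced replicate 3 lay within the uninduced range. Octbeta1R, a β-adrenergic-like octopamine receptor, had 17.1 to 20.5 CPM in induced and 22.2 to 28.1 CPM in uninduced heads (-0.49, adjusted p = 3.9e-04). Octbeta2R had 78.6 to 80.3 CPM in induced and 85.6 to 92.5 CPM in uninduced heads (-0.14, adjusted p = 0.0174), was not called without uninduced replicate 3 (adjusted p = 0.0770) and turned to 0.036 under library totals only. The other 5 receptors did not pass, with log2 fold changes between -0.16 and 0.21. Of these, Oamb, Octbeta3R and Oct-TyrR passed as higher under library totals only, and Octbeta3R also without uninduced replicate 3 (0.24, adjusted p = 0.0324).

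**Figure D4:**
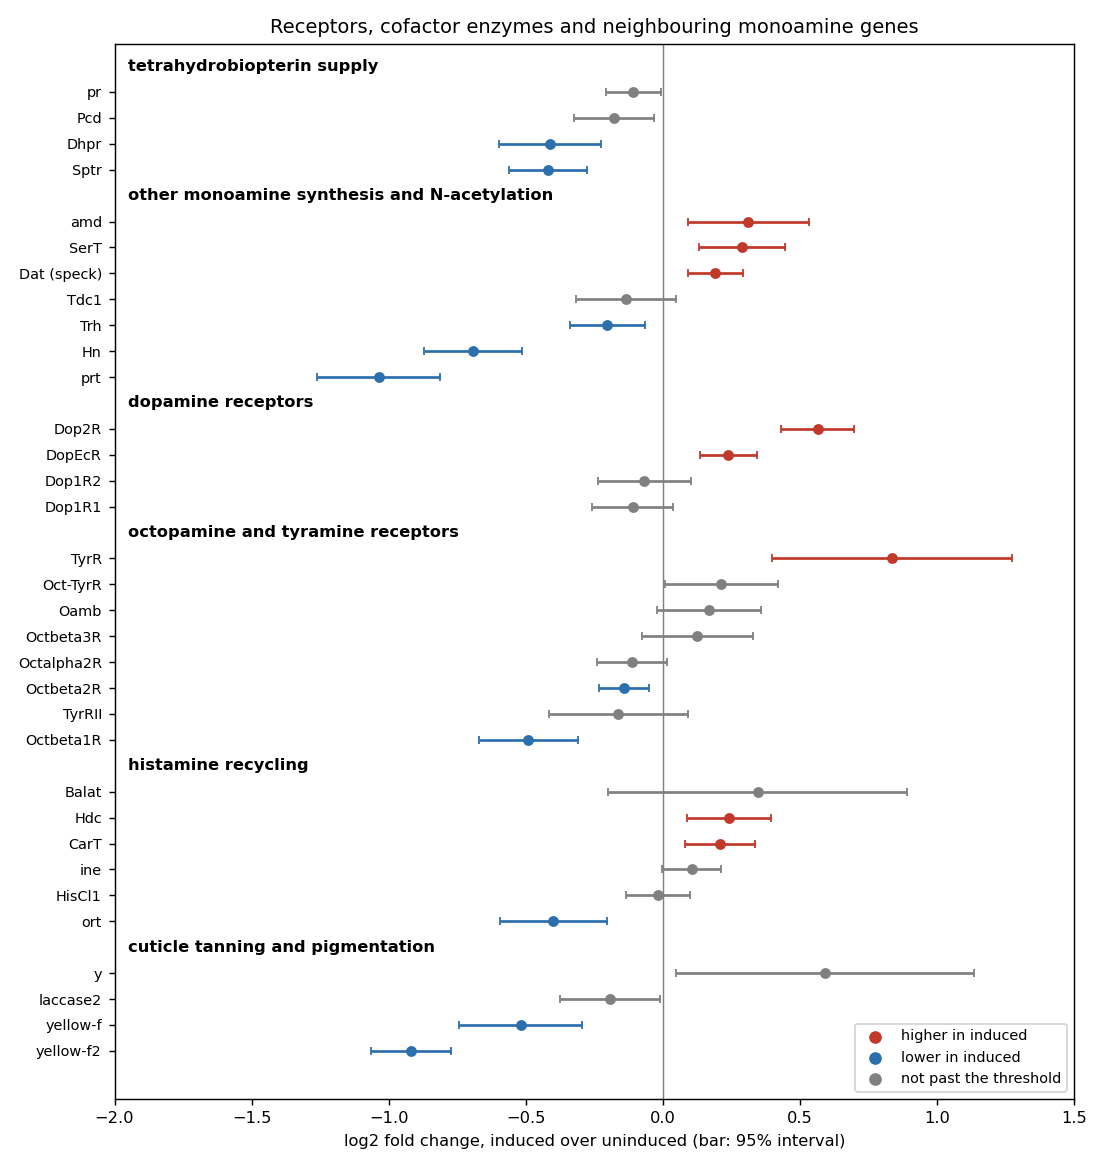
Log2 fold change (horizontal axis, induced over uninduced, with 95% intervals) of the 33 genes of the 6 surrounding lists, with genes past the threshold in red (higher) or blue (lower) and the others in grey. The fall is largest for prt (-1.04) and yellow-f2 (-0.92), and the rise among genes past the threshold is largest for TyrR (0.84).

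The histamine list held the genes that work beside e and t where photoreceptors and glia pass histamine between them as a β-alanyl conjugate. Of its 6 genes, 2 were higher and 1 lower. Hdc, histidine decarboxylase, had 83.5 to 96.8 CPM in induced and 65.5 to 84.9 CPM in uninduced heads (log2 fold change 0.24, adjusted p = 0.0170 from edgeR). CarT, listed as CG9317, which returns the conjugate to photoreceptors, had 40.2 to 48.0 CPM in induced and 36.9 to 39.9 CPM in uninduced heads (0.21, adjusted p = 0.0135). The histamine-gated channel ort had 10.2 to 12.4 CPM in induced and 12.8 to 16.4 CPM in uninduced heads (-0.40, adjusted p = 0.0034). Without induced replicate 2, the calls of Hdc (adjusted p = 0.0591) and CarT (adjusted p = 0.0517) were lost, and that of Hdc also without induced replicate 4 (adjusted p = 0.0503). The call of ort was lost under library totals only (-0.22, adjusted p = 0.0635). The channel HisCl1 did not pass (-0.018, adjusted p = 0.825), and under library totals only it passed as higher (0.16, adjusted p = 0.0339).
Of 4 genes of cuticle tanning and pigmentation, 2 were lower. yellow-f2, an enzyme that converts dopachrome in melanin synthesis, had 52.8 to 58.6 CPM in induced and 93.6 to 120 CPM in uninduced heads (a log2 fold change of -0.92 with a standard error of 0.067, adjusted p = 1.5e-07 from edgeR), and the related yellow-f had 6.95 to 8.87 CPM in induced and 10.0 to 12.4 CPM in uninduced heads (-0.52, adjusted p = 0.0013). For both the groups did not overlap. The other genes, y (0.59, adjusted p = 0.0839) and laccase2 (-0.19, adjusted p = 0.0886), named after their values were seen, did not pass. y passed as higher without uninduced replicate 2 (0.90, adjusted p = 0.0104) and under library totals only (0.77, adjusted p = 0.0179), and laccase2 passed as lower without induced replicate 4 (-0.25, adjusted p = 0.04997). Of 5 epidermal markers, 0 were called, with a summed level of 74.7 to 93.1 CPM in induced and 88.7 to 95.9 CPM in uninduced heads. These markers include laccase2, so they are not independent of the tanning list. The fat body markers were also lower in induced heads, as given above. Their covariation with yellow-f2, yellow-f, Hn, Sptr and Dhpr was not computed. Of 3 hemocyte markers tested, Hml (log2 fold change -0.65, adjusted p = 0.0219 from edgeR) and NimC1 (-0.93, adjusted p = 0.0152) were lower. In both, the groups overlapped through induced replicate 3, and Ppn was not called (-0.39, adjusted p = 0.123). With DESeq2, 1 of 4 hemocyte markers was lower. Their summed level was 78.0 to 168 CPM in induced and 129.5 to 183 CPM in uninduced heads, with He at 1 to 10 counts per library. The part of fat body or hemocytes in the falls of yellow-f2, yellow-f, Hn, Sptr and Dhpr was not tested.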

How the data were processed

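RNA from 15 heads per library was sequenced by the authors with 100-base paired-end reads aligned to dm6. The authors deposited raw counts per gene without normalization; neither the aligner and counter nor the annotation and strand setting is given in the sources used here. Another 8 columns of per-library values (counts divided by size factors), and columns with the authors' DESeq2 comparison, were not used. The test was that of edgeR 4.0.16 under R 4.3.3 (TMM, filterByExpr, quasi-likelihood test, Benjamini-Hochberg adjustment over 9905 genes, threshold 0.05). It was also run on simulated counts drawn from the fit's own dispersion, with few genes changed. That check does not cover a comparison in which 36.5% of genes pass. Standard errors are the absolute log2 fold change over the square root of F, and intervals are 95%. The exact permutation test (two-sided) was run on log2(CPM + 0.1). Exon lengths and coordinates are from the Ensembl BDGP6 annotation (dm6 coordinates). Exon lengths count every base that lies in any annotated exon of the gene. Older names in the table were matched by synonyms. Library totals of 13247282 to 14962813 counts set the precision. The labels name the libraries of a group as biological replicates.

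The genes, lists and tests were chosen with earlier results of these data known. The genes named are the 10 members, in each list up to 3 genes past the threshold with the largest absolute change, and for each called member the list gene that varied most like it. Other list genes, neighbours and marker genes that the text names were chosen after their values were seen. Alternatives were DESeq2 1.42.0, RLE and upper quartile normalization, library totals only, no filter, a minimum of 10 counts in each library, replicate number as a block, a pseudocount of 1 CPM, and each library left out.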

Additional observations from a re-analysis of the deposited data

Results flagged for a closer look

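DAT, the dopamine transporter, was the gene with a library apart from the other libraries of its group, and it had 1 in each group. Induced replicate 2 was the highest of its group at 13.4 CPM, where the lowest was 10.7 CPM, and its gap to the next library was 0.953 of the range. Uninduced replicate 2 was the lowest of its group at 13.6 CPM, where the highest was 15.4 CPM, with a gap of 0.885 of the range. In all, 20 groups of 4 values were examined, and chance flags about 1 in 20. These are the libraries that brought the groups closest together. Without induced replicate 2 the log2 fold change of DAT was -0.47 (adjusted p = 8.2e-04 from edgeR), and without uninduced replicate 2 it was -0.42 (adjusted p = 0.0041).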

How the results depend on the processing

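Tdc2 and ple kept their direction and their call in all 15 alternatives, with log2 fold changes of 1.18 to 1.41 and of -0.60 to -0.40. Library totals only gave 4488 higher and 874 lower genes among all tested, 83.7% higher against 48.4% with TMM. Among the 10 genes it gave 4 higher and 1 lower, and values of 0.15 for Ddc, 0.057 for t, -0.13 for Vmat, -0.20 for DAT, -0.017 for Tbh, 0.36 for e, 0.28 for b and 0.23 for Pu, by the construction of a scaling that shifts all genes. The call of t was also lost with no filter (-0.12), with at least 10 counts in every library (-0.11) and with the replicate block (-0.12); the cause was not tested. With each library left out, t ranged from -0.14 to -0.10, Ddc from -0.065 to 0.0051 and Tbh from -0.24 to -0.14, and Tbh passed without induced replicate 4 or uninduced replicate 4. The replicate number pairs nothing in the labels, and deviations of same-numbered libraries correlated at -0.065 to 0.025. With the replicate block, 3459 genes were called against 3616 without it, and 4 of the 10 genes. The number of members called was 4 to 6 over all alternatives. Counts limit the precision most for Tdc2, DAT and e.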

Other observations

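The genes beside Tdc2 on chromosome 2R did not move alike. CG15909, on the opposite strand and 35 bases from the 3′ end of Tdc2, had 29 to 40 counts in induced and 16 to 23 in uninduced libraries (log2 fold change 0.65, adjusted p = 0.0121 from edgeR). CG3270, 3456 bases away on the other side, had 416 to 458 counts in induced and 496 to 619 in uninduced libraries (-0.58, adjusted p = 2.2e-05). Rpp25, listed as CG9422, whose span overlaps that of Tdc2, was not called (0.13, adjusted p = 0.212 from edgeR). The gene dikar, 9275 bases from ple, was higher (0.15, adjusted p = 0.0365), while ple fell. CG8519, on the other side of ple at 4356 bases, was not called (0.28, adjusted p = 0.177). Beside e, which did not pass, Nelf-A, a subunit of the negative elongation factor, had 905 to 1118 counts in induced and 449 to 595 in uninduced libraries (0.71, adjusted p = 8.0e-06). These neighbours were chosen for mention after their values were seen.

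Among libraries of the same group, deviations from the group mean of log2 CPM varied together most for Tbh and b (Pearson r = 0.84 over 8 libraries) and for ple and b (0.74). The most negative value was that of DAT and Pu (-0.75), which varied in opposite directions. Among the 33 surrounding genes, the most alike in this measure was Oamb for ple (0.73), DopEcR for Tdc2 (0.72), Hdc for Vmat (0.86), HisCl1 for DAT (0.70) and Pcd for t (0.72). Uninduced replicate 4, which stood apart, held the lowest uninduced CPM of Tbh, b, ple, Oamb, Tdc2, DopEcR, Vmat and Hdc. It also held the highest uninduced CPM of t and Pcd, while DAT and HisCl1 were lowest in uninduced replicate 2. The part of uninduced replicate 4 in these correlations was not tested. The points share 8 libraries and their depth, and the values are descriptions, with no test.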
